A study of Oryctolagus cuniculus with 6 samples.

Results

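The TGF-beta group described here comprised 9 genes chosen by symbol from the 17396 genes that the files list, and all 9 were found and passed the filter on low counts. They were the ligands TGFB1, TGFB2 and TGFB3, the receptors TGFBR1 and TGFBR2, the feedback inhibitor SMAD7, and the response and matrix genes ANKRD1, LTBP2 and POSTN. Their messenger RNA was measured by RNA-seq in facial nerve of wild-type male Japanese white rabbits aged 3 to 4 months, with 3 libraries each for FNI (facial nerve injury) and FNI+I-125. In both groups the main trunk of the left facial nerve had been transected and the tissue was taken on day 14. In the FNI+I-125 group a single I-125 seed, a sealed source of low-energy gamma radiation, of 0.8 mCi had also been placed 0.3 to 0.5 cm from the nerve. Both groups therefore carried the transection, and the comparison concerned the seed on top of the injury. The uninjured sham group was not analysed here.

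TGF-beta is the main signal by which wounded tissue instructs its cells to make scar matrix. Its ligands are secreted in a latent form, held by latency proteins in the matrix, and are freed by integrins and proteases. The free ligand binds TGFBR2, which recruits and phosphorylates TGFBR1, and TGFBR1 in turn phosphorylates SMAD2 and SMAD3, which enter the nucleus with SMAD4. SMAD7 is itself switched on by this signal and blocks TGFBR1, closing a negative feedback loop. In a cut nerve, fibroblasts, macrophages and Schwann cells all make and receive TGF-beta, and irradiated tissue is known for TGF-beta driven fibrosis.

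The libraries held 16031151 to 16798012 counts each, and values not named as counts are CPM, a gene's counts relative to the effective size of its library as scaled by edgeR's TMM method. The libraries differed in the tissue they held. Summed over the 12 Schwann cell markers, FNI replicate 3 stood at 39138 CPM and the other 5 libraries between 933 and 8201 CPM, and the FNI+I-125 values all lay below the FNI values. The 10 macrophage markers listed summed to 317 CPM in FNI replicate 3, 891 and 1186 CPM in the other FNI libraries and 1414 to 2235 CPM in the FNI+I-125 libraries. The 25 skeletal muscle markers summed to 7323 and 6464 CPM in FNI+I-125 replicates 1 and 2, and to 55.7 to 153 CPM in the other 4 libraries. The 10 salivary gland markers summed to 49151 CPM in FNI replicate 2 and to at most 3346 CPM elsewhere. The fibroblast markers, 10 genes, overlapped between the groups at 8152 to 10232 CPM in the FNI libraries and 8157 to 10880 CPM in the FNI+I-125 libraries. SOX10, one of the 12 Schwann cell markers, was present in every library at 54.4 to 276 CPM. In bulk tissue, fewer cells of a type and less RNA per cell cannot be told apart.

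Of the 9 genes, 7 had a positive log2 fold change in the FNI+I-125 group and 4 had higher values there without overlap between the groups, namely TGFB1, TGFBR1, SMAD7 and ANKRD1. SMAD7 was 1.83-fold and TGFB1 2.17-fold the FNI level, TGFBR1 was 1.40-fold, and ANKRD1 was 56.6-fold. TGFBR2 and TGFB3 had nearly equal group means, and TGFB2, LTBP2 and POSTN overlapped between the groups. The median log2 fold change was 0.63 over the 9 genes and 0.013 over all 14003 genes tested. Across all genes, 27.2% did not overlap between the groups, 14.8% with the FNI+I-125 libraries above and 12.3% with them below.

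The quasi-likelihood test of edgeR called 0 of the 9 genes, and 0% of all genes, by the study's criteria of a Benjamini-Hochberg adjusted p under 0.05 with a log2 fold change of at least 1.5 either way. By unadjusted p alone (under 0.05), edgeR called 4 of the 9, all higher, against 17.0% of all genes, of which 9.23% were higher and 7.73% lower. limma-voom called 0 of the 9, and 0% of all genes, at the adjusted threshold. At the unadjusted p it called 3 of the 9, against 15.4% of all genes. DESeq2 called 1 of the 9, ANKRD1, at the adjusted p with the fold criterion, where it called 2.85% of all genes. Without the fold criterion DESeq2 called SMAD7 as well, against 6.38% of all genes. The values of all members stand side by side in the plot of CPM by library.

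**Figure D1:**
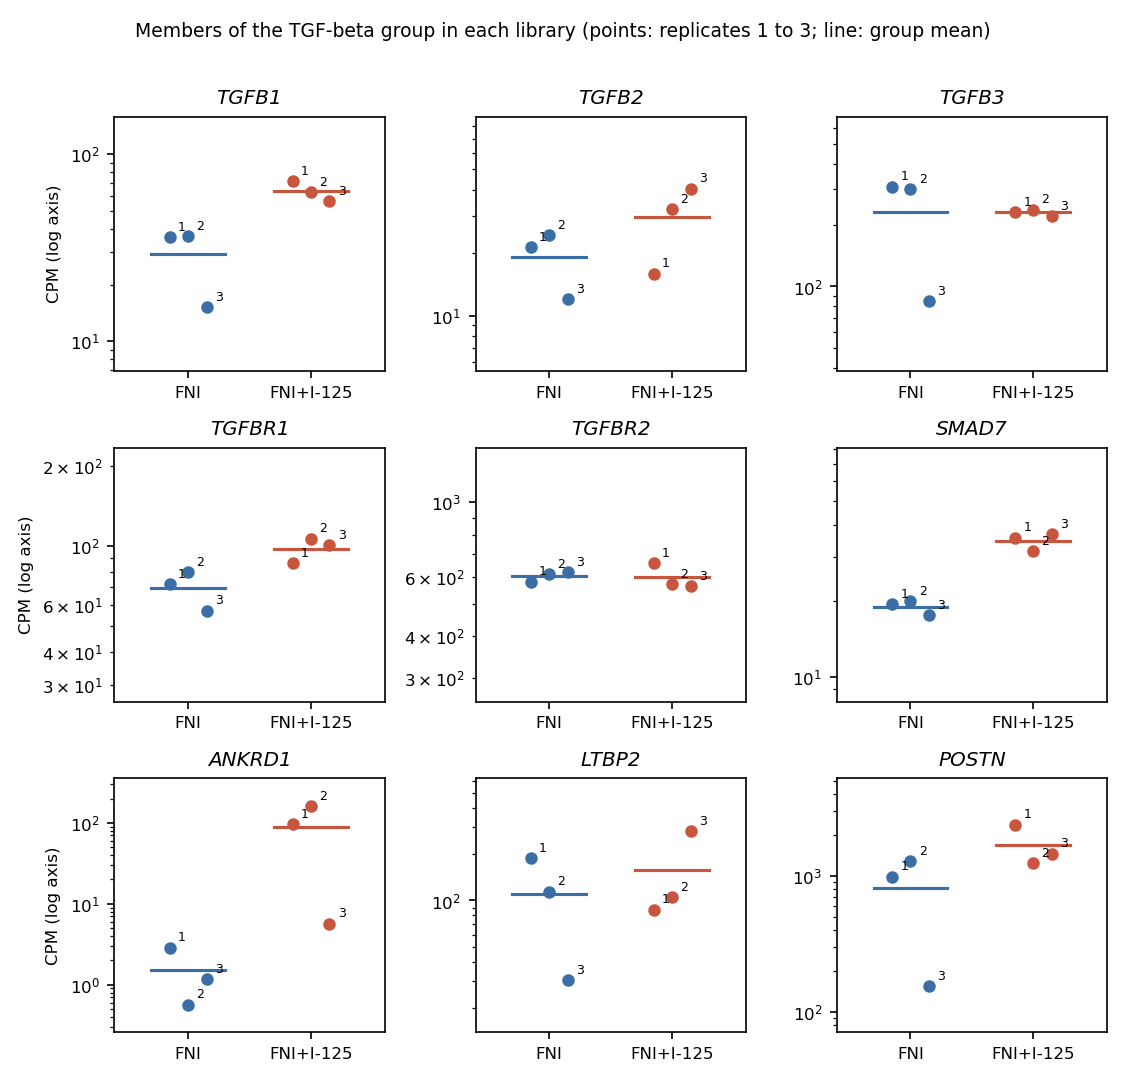
CPM on a log axis for each of the 9 genes, with 1 point per library, numbered by replicate, and a line at the mean of the 3 libraries of the FNI (blue) and FNI+I-125 (red) groups. TGFB1, TGFBR1, SMAD7 and ANKRD1 do not overlap between the groups, and FNI replicate 3 is the lowest library for 7 of the 9 genes.

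Among the ligands, TGFB1 is the form that immune cells and platelets release at a wound and the one most tied to scarring. In replicate order, the FNI libraries held 617, 582 and 258 TGFB1 counts, or 36.1, 36.7 and 15.2 CPM. The FNI+I-125 libraries held 1103, 1034 and 956 TGFB1 counts, or 72.1, 62.9 and 56.1 CPM. Each FNI+I-125 library thus lay above each FNI library, and FNI replicate 3 lay well below the other FNI libraries. TGFB1 had a log2 fold change of 1.12 (standard error 0.35), with edgeR p-values of 0.0183 before and 0.280 after adjustment. An exact permutation test of log2(CPM + 1) gave p = 0.1, two-sided, the smallest that 3 libraries against 3 allow. Without FNI replicate 3 the log2 fold change was 0.79 (edgeR, unadjusted p = 0.0030), and without FNI+I-125 replicate 1 the unadjusted edgeR p was 0.0558. The summed macrophage markers were likewise higher in each FNI+I-125 library and lowest in FNI replicate 3. All 10 had a positive log2 fold change (median 1.41), 6 of them without overlap. Among all genes, 51.1% had a positive log2 fold change and 14.8% were higher without overlap. The part of macrophages in the TGFB1 difference was not tested. Platelets are another known store of TGFB1, and the sum of the 4 platelet markers listed overlapped between the groups. FNI+I-125 replicate 1 had the highest sum, but FNI replicate 1 lay above FNI+I-125 replicates 2 and 3. ITGA2B overlapped as well (log2 fold change -0.10). PPBP, with only 2 to 7 counts per FNI library, had 0.118 to 0.441 CPM there and 2.50 to 12.4 CPM in the FNI+I-125 libraries. GP9 and GP1BA had at most 5 counts in any library, and PF4 and GP1BB were not listed.

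TGFB3, the ligand associated in skin with healing that leaves less scar, did not separate the groups. It had 309, 300.3 and 84.6 CPM in the FNI libraries and 232, 238 and 222 CPM in the FNI+I-125 libraries. The FNI+I-125 libraries thus lay close together (coefficient of variation 3.54%) and between the high and the low FNI libraries (54.9%). On all 6 libraries the log2 fold change was -0.0028, with a wide 95% interval from -1.15 to 1.15. The value rested on 1 library. Without FNI replicate 3, TGFB3 was at -0.42 on the log2 scale (standard error 0.12), with edgeR p-values of 0.0153 before and 0.377 after adjustment, and its adjusted p ran from 0.377 to 0.998 over all alternatives.

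TGFB2, a ligand best known from embryonic development, had 21.2, 24.2 and 12.0 CPM in the FNI libraries. In the FNI+I-125 libraries it had 15.9, 32.4 and 40.4 CPM. FNI+I-125 replicate 1 lay below FNI replicates 1 and 2, so the groups overlapped. TGFB2 had a log2 fold change of 0.63 (standard error 0.42, 95% interval -0.39 to 1.64), with an edgeR adjusted p of 0.434. Its size depended on single libraries, being 0.93 without FNI+I-125 replicate 1 (edgeR, unadjusted p = 0.0398) but 0.36 without FNI replicate 3 and 0.33 without FNI+I-125 replicate 3 (edgeR, unadjusted p = 0.413 and 0.485).

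The balance between the ligands was compared within each library, a measure that no scaling between libraries can move and that was chosen after the values had been seen. Since counts grow with transcript length and lengths were not used here, the shares compare libraries and not ligands. TGFB1 made up 9.87%, 10.2% and 13.6% of the summed counts of the 3 ligand genes in the FNI libraries, in replicate order. Its share in the FNI+I-125 libraries was 22.5%, 18.9% and 17.6%. The share of TGFB3 was 84.3%, 83.2% and 75.6% against 72.5%, 71.4% and 69.7%. Both shares separated the groups, TGFB1 upward and TGFB3 downward, while that of TGFB2 overlapped at 5.79% to 10.7% against 4.97% to 12.7%. Since the 3 shares make up the whole, a higher share of TGFB1 lowers the others, and these are not separate results. The mean level of TGFB3 itself was 231 CPM in both groups. The ratio of TGFB1 to TGFB3 counts averaged 0.140 ± 0.035 (SD, n = 3) without and 0.276 ± 0.031 (SD, n = 3) with the seed (exact permutation test, two-sided, p = 0.1, the smallest possible). On the log2 scale the groups differed by 1.00, and by 0.89 to 1.20 with each library left out in turn. FNI replicate 3, the library with the lowest TGFB1 and TGFB3 counts, had the highest ratio of its group at 0.180, below the lowest FNI+I-125 ratio of 0.253. The plot of ligand shares gives the 6 libraries side by side.

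**Figure D2:**
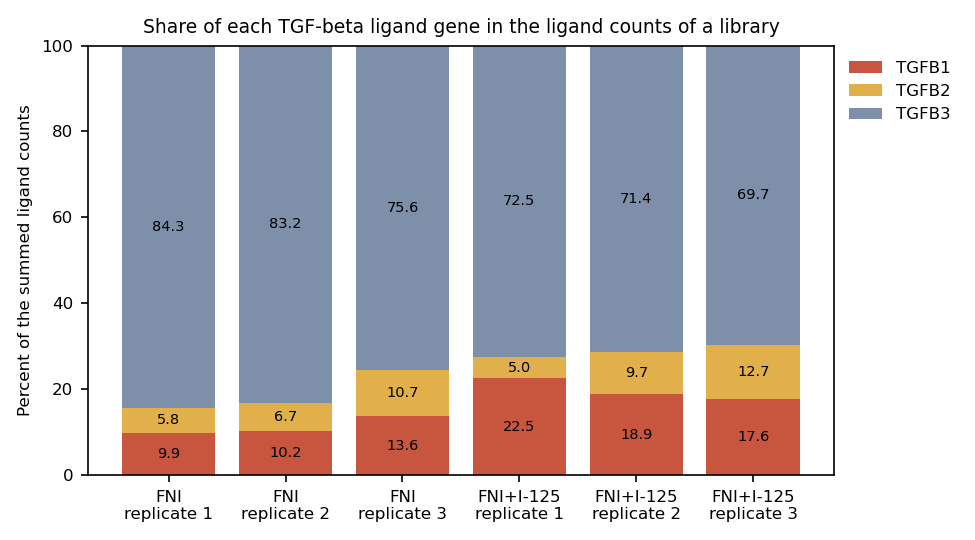
Percent of the summed TGFB1, TGFB2 and TGFB3 counts held by each gene, with 1 stacked bar per library. The TGFB1 share runs from 9.87% to 13.6% in the FNI libraries and from 17.6% to 22.5% in the FNI+I-125 libraries.

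Of the receptors, TGFBR2, which binds the ligand first, varied least of the members over the 6 libraries. It had 581, 613 and 621 CPM in the FNI libraries and 661, 571 and 563 CPM in the FNI+I-125 libraries. Both the highest and the lowest value came from libraries with the seed. TGFBR2 had a log2 fold change of -0.017, with a 95% interval from -0.37 to 0.33 (edgeR, adjusted p = 0.956).

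TGFBR1, the kinase that passes the signal to the SMAD proteins, had 72.2, 79.8 and 57.2 CPM in the FNI libraries. It had 86.1, 107 and 101 CPM in the FNI+I-125 libraries, all above the FNI group. The gap separating the nearest libraries of either group was small beside the spread within each group. The log2 fold change of TGFBR1 was 0.49 (standard error 0.17, 95% interval 0.08 to 0.89, adjusted p = 0.280 and unadjusted p = 0.0254 from edgeR). Its unadjusted edgeR p was above 0.05 when FNI replicate 1, FNI replicate 3, FNI+I-125 replicate 2 or FNI+I-125 replicate 3 was left out, and its log2 fold change was 0.35 without FNI replicate 3.

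SMAD7, the feedback inhibitor, gave the most even separation of the members. The FNI libraries held 333, 317 and 298 counts of it and the FNI+I-125 libraries 547, 519 and 629. This was 19.5, 19.97 and 17.6 CPM against 35.8, 31.6 and 36.9 CPM, with coefficients of variation of 6.56% and 8.07%. The distance between the groups was several times the spread within either of them, and no single library stood out. SMAD7 had a log2 fold change of 0.87 (standard error 0.13, 95% interval 0.55 to 1.18), which is under the 1.5 criterion. Its unadjusted edgeR p of 5.2e-04 was the 11th smallest among 14003 genes, and its adjusted p was 0.280. Over the alternatives the adjusted p of SMAD7 ran from 5.2e-06 with DESeq2 to 0.502 with edgeR on 5 libraries, without FNI+I-125 replicate 1. With each library left out in turn its log2 fold change stayed between 0.80 and 0.91, and with FNI+I-125 replicates 1 and 2 left out together, which leaves 1 library in that group, it was 0.92 (edgeR, unadjusted p = 0.0097). The lone library is assumed in that fit to vary like the others.

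**Figure D3:**
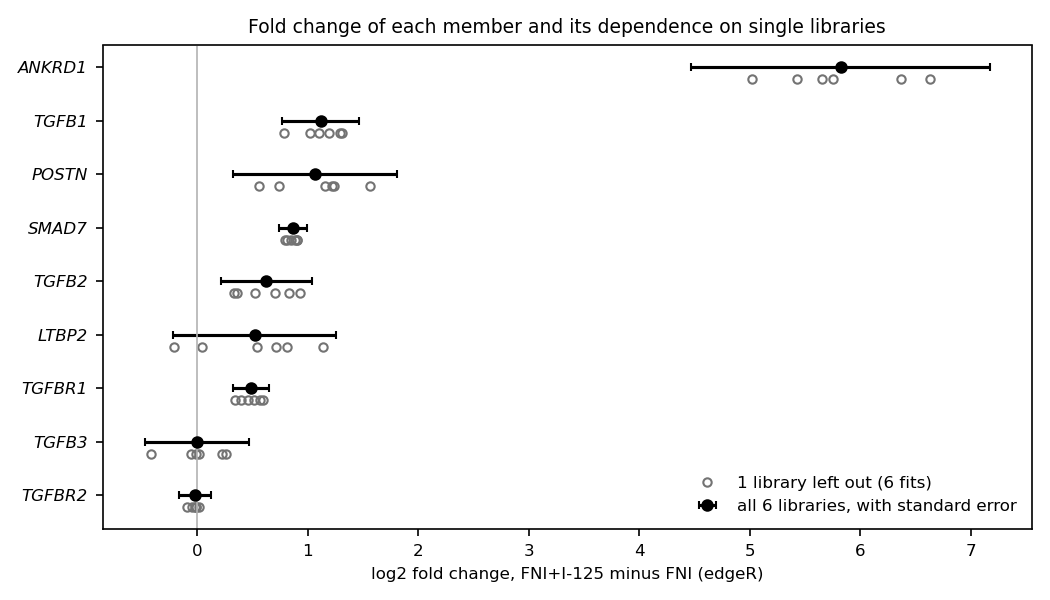
Log2 fold change (FNI+I-125 minus FNI) of each member from edgeR on all 6 libraries, with its standard error (filled points and bars), and from the 6 fits that each leave out 1 library (open points). SMAD7 keeps within 0.80 to 0.91, TGFB3 and LTBP2 fall on both sides of 0, and ANKRD1 ranges from 5.02 to 6.63.

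ANKRD1 encodes a repeat protein that shuttles between the sarcomere of striated muscle and the nucleus. It is known as a target of the YAP and TEAD transcription factors and as a gene of stretched or injured muscle, besides its place among TGF-beta response genes. The FNI libraries held 49, 9 and 20 ANKRD1 counts, or 2.87, 0.567 and 1.18 CPM. With the seed, replicates 1 and 2 held 1475 and 2658 counts, or 96.4 and 162 CPM, and replicate 3 held 97 counts, or 5.69 CPM. The groups did not overlap, but the difference was of another size in replicates 1 and 2, at 62.6 and 105 times the FNI mean, than in replicate 3, at 3.70 times. ANKRD1 had a log2 fold change of 5.82 (standard error 1.35, 95% interval 2.52 to 9.12), with edgeR p-values of 0.0050 before and 0.280 after adjustment. limma-voom gave 5.09 (unadjusted p = 0.168) and DESeq2 5.83 (adjusted p = 7.3e-06), and over all alternatives the adjusted p ran from 7.3e-06 to 0.502.

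Both libraries with ANKRD1 near or above 100 CPM were also those with the most muscle transcripts. All 22 muscle markers tested had a positive log2 fold change, with a median of 5.37, against 51.1% positive among all genes. At an unadjusted edgeR p under 0.05, 20 were higher, against 9.23% of all genes. Yet 0 were free of overlap between the groups, where 14.8% of all genes were higher without overlap. The 7 listed markers of regenerating muscle summed to 117 and 177 CPM in the same libraries and to 0.504 to 9.14 CPM in the other 4. In replicates 1 and 2 with the seed most of it was MYH3, an embryonic myosin. PAX7, a muscle stem cell marker singled out after its values were seen, had 1, 1 and 3 counts without the seed and 13, 13 and 11 with it. It was low throughout but did not overlap between the groups, FNI+I-125 replicate 3 included. FNI+I-125 replicate 3 had the lowest summed muscle level of all libraries, 55.7 CPM, with 2 of the 25 listed markers at 0. ANKRD1 was 1.98 times as high there as in the highest FNI library, from 97 counts against 49. Set against the summed muscle markers, ANKRD1 came to 1.88%, 0.732% and 0.990% in the FNI libraries, and with the seed to 1.32%, 2.50% and, in replicate 3, 10.2%. With FNI+I-125 replicates 1 and 2 left out together, its log2 fold change was 1.84 (standard error 0.96, unadjusted p = 0.130 from edgeR). The part of muscle tissue in the ANKRD1 difference was not tested.

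**Figure D4:**
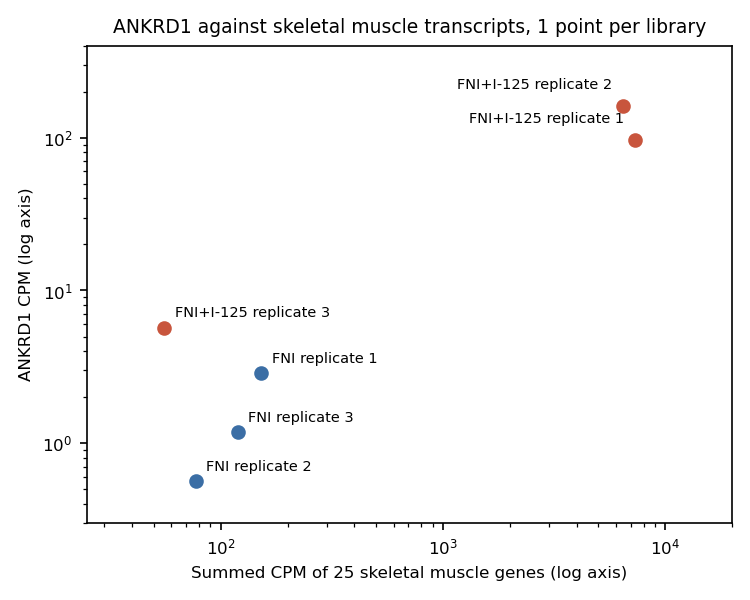
ANKRD1 CPM against the summed CPM of 25 skeletal muscle genes, both on log axes, with 1 point per library of the FNI (blue) and FNI+I-125 (red) groups. FNI+I-125 replicates 1 and 2 are high on both axes, and FNI+I-125 replicate 3 has the lowest muscle sum, 55.7 CPM, with 5.69 CPM of ANKRD1.

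POSTN encodes periostin, a matrix protein that fibroblasts secrete in response to TGF-beta during scar formation. It had 990, 1285 and 154 CPM in the FNI libraries and 2390, 1244 and 1461 CPM in the FNI+I-125 libraries. FNI+I-125 replicate 2 lay just under FNI replicate 2, and FNI replicate 3 was far below all others. POSTN had a log2 fold change of 1.07 (standard error 0.74, 95% interval -0.74 to 2.88, adjusted p = 0.453 from edgeR). Without FNI replicate 3, the library with the highest Schwann cell marker sum, it was 0.56. Without FNI replicate 2 it was 1.57, and without FNI+I-125 replicate 1 the unadjusted edgeR p was 0.423.

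LTBP2 belongs to the latent TGF-beta binding protein family but, unlike its relatives, is not known to hold latent TGF-beta, and it is associated with microfibrils and with fibrosis. It had 188, 114 and 30.4 CPM in the FNI libraries and 87.3, 106 and 284 CPM in the FNI+I-125 libraries. The extremes were single libraries, FNI replicate 3 at the low end and FNI+I-125 replicate 3 at the high end. In the other 4 libraries both FNI values lay above both FNI+I-125 values. LTBP2 had a log2 fold change of 0.52 (standard error 0.74, 95% interval -1.29 to 2.33, adjusted p = 0.715 from edgeR). It turned to -0.21 without FNI+I-125 replicate 3 and was 0.048 without FNI replicate 3.

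FNI replicate 3 was the lowest library for 7 of the 9 members, the exceptions being ANKRD1 and TGFBR2. Over all genes tested it was the lowest library for 31.6%, more often than any other library, and the highest for 30.0%. The 4 members called at the unadjusted p kept a positive log2 fold change without it, between 0.35 and 5.65. TGFBR1 then had an unadjusted edgeR p of 0.0573, and the other 3 stayed under 0.05.

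The other genes of the pathway were read from 5 lists by role, which held 87 genes besides the members, of which 83 were tested. At an unadjusted edgeR p under 0.05, 15 of the 83 were higher with the seed and 4 lower (18.1% and 4.82%, against 9.23% and 7.73% of all genes). edgeR called none at the adjusted threshold, and by unadjusted p DESeq2 called 19 of the 83 higher and 8 lower, against 22.4% of all genes called in either direction. limma-voom called 17 higher and 5 lower, against 15.4% of all genes. The median log2 fold change was 0.29. Of the 19 genes called by edgeR, 9 kept an unadjusted p under 0.05 in all 6 fits with 1 library left out. None of the 19 changed sign. Since they were picked by their p on the same libraries, a kept sign was nearly fixed in advance. These counts therefore describe dependence on single libraries and lend the genes no support. The like figures for all genes called are not given here.

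Among 19 genes of latency and activation, 3 were higher and 1 was lower at the unadjusted p. These were 15.8% and 5.26% of the list, against 9.23% and 7.73% of all genes, and the list's median log2 fold change was 0.45. ITGB3, the beta chain of an integrin that frees latent TGF-beta, had 43.8, 54.0 and 25.2 CPM against 100, 108 and 99.3 CPM (log2 fold change 1.32, standard error 0.28). NRROS, which holds latent TGF-beta1 on macrophages and microglia, had a log2 fold change of 0.95 (standard error 0.25). FURIN, the protease that cuts the ligand precursors, had one of 1.12 (standard error 0.34). LTBP4, a latency protein of the matrix, was lower in all FNI+I-125 libraries, at 137, 272 and 209 CPM against 500, 353 and 430 CPM (log2 fold change -1.05, standard error 0.29). All 4 kept an unadjusted edgeR p under 0.05 with any 1 library left out. The most abundant genes of the list, the ligand-binding proteoglycans DCN and BGN, had log2 fold changes of -0.42 and 0.75. That of BGN was 0.37 without FNI replicate 3.

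Of 10 receptors and co-receptors, 2 were higher and 2 lower at the unadjusted p, with a median log2 fold change of -0.016. Each count was 20% of the list, against 9.23% higher and 7.73% lower among all genes. TGFBR3, betaglycan, which presents ligand to TGFBR2, had 200, 217 and 353 CPM in the FNI libraries and 114, 128 and 99.7 CPM in the FNI+I-125 libraries. The FNI+I-125 libraries all lay below the FNI libraries, at a log2 fold change of -1.17 (standard error 0.25, unadjusted p = 0.0036 from edgeR), or -0.89 without FNI replicate 3. CD109, a co-receptor known to dampen the signal, was at 0.95 (standard error 0.28). It lost its unadjusted call without FNI+I-125 replicate 2. The activin-type receptors ACVR1B (0.58) and ACVR1C (-1.76) each lost the unadjusted call in 4 of the 6 fits with 1 library left out. ENG, endoglin, the endothelial co-receptor, was at 0.016.

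Among 14 SMAD proteins and regulators tested, SKIL and FKBP1A were higher and ZFYVE9 was lower at the unadjusted p. That was 14.3% and 7.14% of the list, against 9.23% and 7.73% of all genes. SKIL, a co-repressor that is itself a target of the pathway, had 19.0, 19.8 and 19.8 CPM in the FNI libraries and 33.4, 24.5 and 26.7 CPM in the FNI+I-125 libraries (log2 fold change 0.53, standard error 0.16). It kept its unadjusted call in all 6 fits with 1 library left out, whereas FKBP1A (0.36) lost it in all 6 and ZFYVE9, which anchors SMADs at the receptor (-0.48), in 5. STRAP, with FKBP1A the most abundant of the list, was at 0.29.

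Of 25 matrix and fibrosis response genes tested, 24 had a positive log2 fold change, with a median of 0.52, against 51.1% positive among all genes. With 1 library left out the count was 21 to 24. It was lowest, with medians of 0.29 and 0.35, without FNI+I-125 replicate 1 and without FNI replicate 3. At the unadjusted p 6 were higher and 0 lower (24% and 0%, against 9.23% and 7.73% of all genes). TNC, tenascin-C, a matrix protein of wounds, had 450, 511 and 161 CPM against 1970, 712 and 1063 CPM (log2 fold change 1.74, standard error 0.56). VCAN, versican, was at 2.12 (standard error 0.72), and both lost the unadjusted call without FNI+I-125 replicate 1, at 1.25 and 1.61. INHBA, the activin A subunit, was at 1.41 (standard error 0.38), or 0.97 without FNI+I-125 replicate 1, and CCN2, a growth factor binding protein induced by TGF-beta and by YAP, at 0.85 (standard error 0.21). Both kept an unadjusted edgeR p under 0.05 in all 6 fits. The collagens COL1A1 (0.44, standard error 0.54) and COL3A1 (0.32, standard error 0.49), the most abundant of the list, and ACTA2, the smooth muscle actin of myofibroblasts (0.29, standard error 0.29), overlapped between the groups. Without FNI+I-125 replicate 1, COL1A1 was at 0.078 and COL3A1 at 0.0015, without FNI replicate 3 they were at 0.15 and 0.063, and without FNI+I-125 replicate 2 ACTA2 was at -0.0081.

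**Figure D5:**
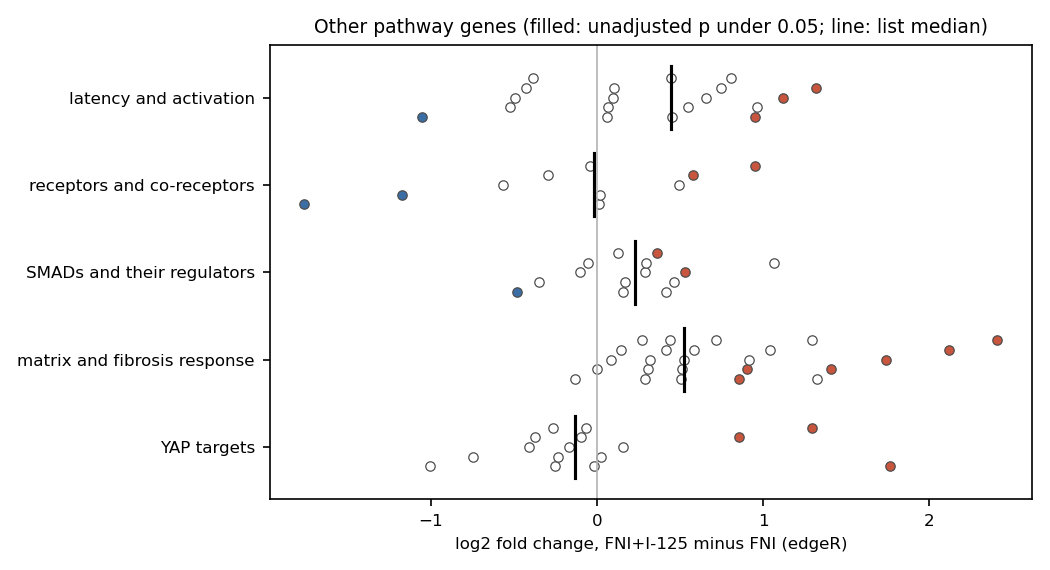
Log2 fold change (FNI+I-125 minus FNI, edgeR) of each tested gene in the 5 role lists, members left out, with filled points for an unadjusted p under 0.05 (red higher, blue lower) and a line at each list's median, and with CCN2 shown in both lists that hold it. The matrix list has 24 of 25 points above 0 and the YAP list 5 of 16.

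The 16 YAP targets and cofactors, read because ANKRD1 is also one of them, had 5 positive log2 fold changes and a median of -0.13. At the unadjusted p 3 were higher and 0 lower (18.8% and 0%, against 9.23% and 7.73% of all genes). These were CCN2, which also stands in the matrix list, MYOF, which repairs membranes (1.29, standard error 0.36), and CCN1 (1.76, standard error 0.71). CCN1 had 50.5, 36.9 and 144 CPM against 457, 110 and 219 CPM, with FNI replicate 3 above FNI+I-125 replicate 2, and it lost the unadjusted call in 4 of the 6 fits with 1 library left out. At 1.10 without FNI+I-125 replicate 1 and 2.56 without FNI replicate 3, its size depended on these libraries.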

How the data were processed

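Raw counts per gene were deposited by the authors, 1 file per library, from oligo dT selected mRNA (TruSeq Stranded kit, paired-end Illumina reads). The submitters' processing notes name HISAT2 and OryCun2.0, and the counting program is not given in the sources used here. The labels give a mirVana kit for extraction and the paper's methods TRIzol. The study's methods give 3 rabbits per group. Of 2992 LOC identifiers, 583 were given symbols by RefSeq (assembly mOryCun1.1), and CCN1 and CCN2 are listed as CYR61 and CTGF. The 25 genes whose names are spreadsheet dates (0.188% of counts) were kept in the tests. No sequence was used here.

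All 6 libraries were fitted in R 4.3.3 with edgeR 4.0.16 (estimateDisp, glmQLFit and glmQLFTest at defaults, TMM, filterByExpr with a minimum count of 10, 14003 genes), FNI+I-125 against FNI. All tests were two-sided. The Benjamini-Hochberg adjustment ran over all genes, and the paper's criteria were taken (adjusted p under 0.05, log2 fold change of at least 1.5 either way). The standard error is the absolute log2 fold change divided by the square root of the F statistic, and 95% intervals use the fit's total degrees of freedom. DESeq2 1.42.0, limma-voom (limma 3.58.1), other scalings and filters, a replicate block and left-out libraries were the alternatives. For single values, log2(CPM + 1) was permuted exactly over the libraries. The statistics were tested on simulated data.

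The members and lists were chosen with earlier results of these data known. The text names all members and, per role list, up to 4 genes with the smallest p in each direction among those at an unadjusted p under 0.05, the 2 with the highest mean CPM, CCN1, CCN2, ACTA2, COL1A1 and COL3A1. Other genes are markers from fixed lists and, per member, the 3 genes most like it over the libraries. A further gene fixed by the rule is not reported here.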

Additional observations from a re-analysis of the deposited data

How the results depend on the processing

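Over 15 alternatives (14 for ANKRD1, which did not reach 10 counts in every library), TGFB1, TGFB2, TGFBR1, SMAD7, ANKRD1 and POSTN kept a positive log2 fold change. That of TGFB3 turned positive with limma-voom (0.21) and with the replicate block (0.20), and ran from -0.42 to 0.26 with 1 library left out. With 1 library left out, TGFBR2 ran from -0.094 to 0.016 and LTBP2 from -0.21 to 1.14. The number of members past the adjusted threshold was 0, except 1 with DESeq2. At the unadjusted p it was 3 to 4, but the members called were not always the same. Without FNI replicate 3, TGFBR1 was lost and TGFB3 was called as lower. Without FNI+I-125 replicate 1, TGFB1 was lost and TGFB2 was called as higher. The fit with FNI+I-125 replicates 1 and 2 left out together was chosen after seeing the data. Pathway genes at the unadjusted p numbered 19, and 10 to 17 with 1 library left out, lowest without FNI+I-125 replicate 1. The share of all genes called in each of these left-out fits is not given here. Replicate numbers are shared between the groups but did not pair the libraries (correlations of same-numbered deviations -0.23 to 0.048). The replicate block left 0 members at the adjusted threshold, 4 at the unadjusted p and 20 pathway genes. With 3 libraries per group, the intervals of ANKRD1, LTBP2, POSTN, TGFB3 and TGFB2 span more than 2 log2 units.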

Other observations

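For each member, the genes whose log2(CPM + 1) followed it most closely over the 6 libraries were looked up by Pearson's r. The search ran over 12815 other tested genes with a symbol, as a description of 6 points that share their libraries. Every member had partners at an r of at least 0.98, also TGFBR2, which had nearly equal group means. Such values are therefore no sign of shared regulation. For ANKRD1 these were ALPK2 (r = 0.996), ITGB1BP2 (0.990) and SRL (0.988). For SMAD7 they were ZNF710 (0.993), MMP13 (0.991) and HPRT1 (0.990). For TGFB1 they were C1H11orf98 (0.999), WDR43 (0.999) and IDE (0.999), and for TGFB3 MASP1 (0.998), IRX5 (0.993) and RIPPLY3 (0.990). The closest to POSTN were METTL21A, TTYH3 and UBE2V1 (0.996 to 0.997), and the closest to LTBP2 were LPAR5, RCC2 and F2RL1 (0.989 to 0.992). TGFB2 was followed by LIMK1, CHMP1B and SMPDL3A (0.982 to 0.991), TGFBR1 by SPN, RTN4RL2 and IGF2R (0.996 to 0.998), and TGFBR2 by BMX, MBD3L1 and SPCS2 (0.989 to 0.996).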
